A study of Mus musculus with 2 samples.

Results

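The 34 genes described here encode proteins that copy DNA in the S phase of the cell cycle or prepare the cell for it. They were taken by symbol from a list, not by their values, and all 34 are among the 32285 genes of the count tables. The data were 2 single-cell RNA-seq libraries of palatal gingiva from female C57BL/6 mice (C57Bl6/J) of 8 to 12 weeks. One library followed a topical application of CpG ODN, a synthetic oligonucleotide that is a ligand of TLR9, and the other an application of LPS, a ligand of TLR2/4. Each ligand was given as 3 µl at 1 µg/ml under an oral appliance for 1 hour, and the tissue was taken 4 days later. Each library pooled cells of 4 mice in equal parts, and nothing in the files ties a cell to a mouse. With a single library per ligand there is no replicate error to test against, so differences are given with 95% intervals that reflect counting error alone.

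Before a cell divides, origin recognition proteins, Cdc6 and Cdt1 load the ring-shaped MCM helicase on DNA, which licenses an origin of replication. In S phase Cdc45 and the GINS proteins activate the helicase, primase and DNA polymerase alpha start new strands, and the sliding clamp PCNA holds the polymerases on DNA. Many of these genes are transcribed under E2F factors once cyclin-dependent kinases have released them from the retinoblastoma protein. In stratified squamous epithelium such as gingiva, division is known to occur mainly in and near the basal layer, and cells stop cycling as they move up and differentiate.

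E2F letters were more frequent in promoters of the members than in those of all genes, but most members held none. RefSeq promoter windows, from 250 bases before to 50 bases after a transcription start in GRCm38.p6, were held for 29 of the 34 members, in 36 windows. The 8-base E2F letters searched were TTTCCCGC, TTTGGCGC, TTTCGCGC and TTTGCCGC, on both strands, where matches can overlap. They occurred in at least 1 window of 13 of the 29 members (44.8%) against 704 of 27025 genes (2.60%), and in 36.1% of member windows against 2.26% of all 32851 windows. The 13 were Cdc6, Cdt1, Clspn, Dnmt1, Hells, Lig1, Mcm3, Mcm5, Mcm6, Mcm7, Pola1, Rfc3 and Uhrf1. The CCAAT box was found in 62.1% of the members and 41.1% of all genes. The CHR element TTTGAA, known from genes of the late cell cycle, was found in 13.8% and 20.2%. A match of letters is a description and not a binding site. The windows of the MCM helicase genes with a match are shown first, because these 6 subunits form 1 ring and their levels are followed below, and Rrm2 and Pcna are shown as members without a match. Each runs from 5′ to 3′ on the strand of its gene, with the E2F letters in capitals.
Mcm3, chr1:20820263-20820562, minus strand: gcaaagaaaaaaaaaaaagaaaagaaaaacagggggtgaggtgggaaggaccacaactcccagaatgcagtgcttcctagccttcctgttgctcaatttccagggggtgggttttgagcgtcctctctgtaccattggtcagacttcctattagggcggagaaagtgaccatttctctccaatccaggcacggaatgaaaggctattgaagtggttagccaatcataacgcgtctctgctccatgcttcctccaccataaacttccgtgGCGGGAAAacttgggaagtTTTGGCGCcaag
Mcm5, chr8:75109259-75109558, plus strand: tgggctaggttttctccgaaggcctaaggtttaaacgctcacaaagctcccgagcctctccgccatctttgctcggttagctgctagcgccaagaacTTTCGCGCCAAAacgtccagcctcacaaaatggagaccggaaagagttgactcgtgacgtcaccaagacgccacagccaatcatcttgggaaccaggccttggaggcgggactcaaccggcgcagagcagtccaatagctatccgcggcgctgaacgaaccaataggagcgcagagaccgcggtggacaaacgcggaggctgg
Mcm6, chr1:128359656-128359955, minus strand: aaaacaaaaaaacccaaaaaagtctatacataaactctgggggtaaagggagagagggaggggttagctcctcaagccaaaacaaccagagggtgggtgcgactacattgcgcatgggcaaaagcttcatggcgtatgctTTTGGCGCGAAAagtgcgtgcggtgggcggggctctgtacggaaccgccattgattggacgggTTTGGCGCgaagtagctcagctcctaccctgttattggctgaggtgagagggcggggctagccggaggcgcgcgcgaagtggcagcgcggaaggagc
Mcm7, chr5:138171834-138172133, minus strand: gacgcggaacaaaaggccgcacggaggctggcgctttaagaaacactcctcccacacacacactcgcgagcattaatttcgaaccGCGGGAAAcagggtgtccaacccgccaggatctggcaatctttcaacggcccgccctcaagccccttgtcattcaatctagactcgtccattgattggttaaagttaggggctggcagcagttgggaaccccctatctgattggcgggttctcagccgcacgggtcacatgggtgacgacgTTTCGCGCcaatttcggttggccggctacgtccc
Rrm2, chr12:24708004-24708303, plus strand: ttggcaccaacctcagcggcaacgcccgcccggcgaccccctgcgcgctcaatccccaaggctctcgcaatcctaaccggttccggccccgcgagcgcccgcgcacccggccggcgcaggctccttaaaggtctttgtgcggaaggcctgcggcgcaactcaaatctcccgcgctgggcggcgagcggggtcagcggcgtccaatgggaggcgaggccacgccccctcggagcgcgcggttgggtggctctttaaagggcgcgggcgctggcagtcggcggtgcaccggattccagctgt
Pcna, chr2:132253131-132253430, minus strand: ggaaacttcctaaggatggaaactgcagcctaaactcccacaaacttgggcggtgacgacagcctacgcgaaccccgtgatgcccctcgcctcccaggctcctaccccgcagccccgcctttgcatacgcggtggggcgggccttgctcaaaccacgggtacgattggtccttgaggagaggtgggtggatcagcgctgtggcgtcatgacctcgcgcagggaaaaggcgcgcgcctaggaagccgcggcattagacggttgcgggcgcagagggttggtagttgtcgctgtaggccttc
In Mcm3 both runs of capitals lie after the transcription start, in Mcm5 and Mcm6 they lie before it, and in Mcm7 there is a run on either side. Mcm2 had a window without these letters, and Mcm4 is named only.

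With a minimum of 800 detected genes there were 4888 cells after CpG ODN, with a median of 11077.5 UMIs (unique molecular identifiers, 1 for each captured RNA molecule), and 1277 after LPS, with a median of 22680. The LPS cells were thus deeper, so shares of cells were computed after each cell was thinned once to 5000 UMIs, which left out 881 and 131 shallower cells. A single barcode occurred among the kept cells of both libraries. The cells were clustered without the members, other replication genes, mitosis genes and histone genes, and clusters were named from marker genes. The compared genes thus took no part in forming the clusters, although other genes of dividing cells did. Epithelial-like clusters were divided into basal-like, lower suprabasal-like and upper-layer-like by layer markers. Krt5, a basal keratin, had 5791 and 5846 CPM (UMIs per 1000000 UMIs of the summed cells) in basal-like cells of the CpG ODN and LPS libraries and 124 and 34.7 CPM in upper-layer-like cells. Values are given in this order of libraries throughout. In lower suprabasal-like cells Krt5 had 1600 and 1417 CPM. Not every listed marker was highest in its own layer. Krt14, on the basal list, had 19205 and 16360 CPM in basal-like cells and 21914 and 17355 in lower suprabasal-like cells. Krt76, on the lower suprabasal list, had 17634 and 15785 CPM there and 38481 and 29779 in upper-layer-like cells. Krt13, on the same list, was also highest in upper-layer-like cells.

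The members together held 33160 UMIs after CpG ODN and 12924 after LPS. Germinal-centre B-like cells, named from listed markers such as Rgs13, had the highest summed level, 4217 CPM (4127 to 4308) in 238 cells after CpG ODN. The LPS library held only 4 such cells, with 4030 CPM, and 1 of them held 64.8% of the UMIs. Leading genes of this class also held Ighg2b and Jchain. After CpG ODN the plasma cell list had 1461 CPM in it, with no UMI of Tnfrsf17, beside 1146 CPM for the germinal-centre list. Whether the class includes antibody-secreting cells was not tested. Basal-like cells came next among the larger classes, with 757 CPM (745 to 770) in 1737 cells and 721 CPM (705 to 738) in 449 cells. The level was 711 and 579 CPM in other B-like cells, 740 and 558 in T-like cells, and 795 and 265 in the 32 and 13 myeloid-like cells. After CpG ODN the intervals of basal-like (745 to 770), B-like (649 to 777), T-like (638 to 854) and myeloid-like cells (674 to 932) overlapped. After LPS those of B-like (486 to 684), T-like (441 to 696) and myeloid-like cells (168 to 398) lay below that of basal-like cells (705 to 738). Fibroblast-like cells had 433 and 714 CPM, but 1 LPS cell held 40.4% of their member UMIs and the level without it was 444 CPM. Lower suprabasal-like cells had 203.5 CPM (199 to 208) and 187 CPM (180 to 193), and upper-layer-like cells 120 CPM (114 to 127) and 107 CPM (99.6 to 116). Red cell-like barcodes carried 219 CPM (170 to 276) and 269 CPM (198 to 357), but Krt76, Krt16, Krt24 and Krt10, keratins of the suprabasal-like clusters, were among their leading genes beside the globins, and they give no background level. The barcodes under 800 detected genes held 556 CPM after CpG ODN and 25.3 CPM after LPS. No class here was free of these RNAs, and how much of the suprabasal levels came from free RNA was not tested.

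**Figure D1:**
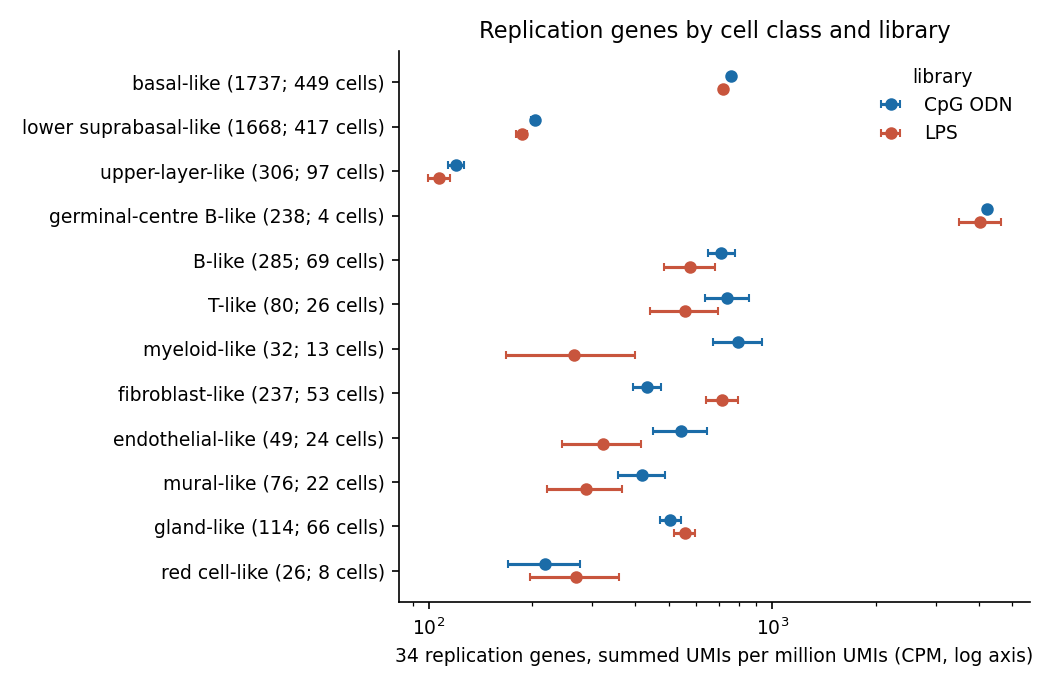
Summed level of the 34 replication genes by cell class, as CPM on a log axis, with points for the CpG ODN and LPS libraries and bars for exact 95% Poisson intervals. Schwann-like and unnamed cells are not drawn. The germinal-centre B-like cells lie highest, at 4217 and 4030 CPM, the basal-like cells at 757 and 721 CPM, and the upper-layer-like cells lowest at 120 and 107 CPM.

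Of the 34 members, 31 had at least 50 UMIs over basal-like and lower suprabasal-like cells in each library, and 28 of these were at least 2 times higher in basal-like cells in both libraries. Of all 10497 genes with as many UMIs, 13.8% were. None was at least 2 times lower in both, beside 4.93% of all genes. The median ratio of the members was 5.27 and 5.40, beside 1.24 and 1.25 over all genes. Mcm10, Cdc45 and Cdc6 had too few UMIs to be counted, and Pcna, Gins1 and Dnmt1 were under 2 times in at least 1 library. Summed over all 34, the ratio was 3.72 (3.62 to 3.83) and 3.86 (3.71 to 4.03). It was 2.20 and 2.25 for the 62 other replication genes, of which 30 of 49 counted were past 2 times in both libraries, and 72 of 84 mitosis genes were.

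Licensing factors and the helicase showed this step in both libraries. Cdt1 had 11.2 and 13.0 CPM in basal-like cells and 1.31 and 1.52 CPM in lower suprabasal-like cells, a ratio of 8.51 (6.14 to 12.0) and 8.54 (5.56 to 13.6). The 6 MCM subunits Mcm2 to Mcm7 summed to 132 and 116 CPM in basal-like cells, to 21.7 and 16.6 in lower suprabasal-like cells and to 8.19 and 4.52 in upper-layer-like cells. Their ratios of basal-like to lower suprabasal-like cells lay between 5.02 for Mcm7 and 9.09 for Mcm5 after CpG ODN. After LPS they lay between 5.05 for Mcm6 and 22.1 (13.3 to 39.5) for Mcm5, which had 201 UMIs in basal-like and 16 in lower suprabasal-like cells. All 6 subunits were therefore lower above the basal layer, by at least 5 times in each library.

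Helicase activation and fork genes gave ratios of 4.46 and 4.39 when summed. Clspn, which couples the fork to the checkpoint kinase, had 10.2 and 8.76 CPM in basal-like cells and 1.25 and 0.936 in lower suprabasal-like cells. Gins1, a GINS subunit, differed least in this group, with 5.09 and 4.33 CPM against 2.91 and 2.11 and ratios of 1.75 (1.30 to 2.34) and 2.05 (1.29 to 3.30). Gins2, another subunit of the same complex, had ratios of 4.79 and 3.80.

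The clamp and its loader had the smallest step of all roles, 2.07 (1.96 to 2.18) and 2.0 (1.85 to 2.16). Pcna, the clamp itself, had 80.4 and 70.6 CPM in basal-like cells, 44.3 and 44.1 in lower suprabasal-like cells and 30.1 and 29.4 in upper-layer-like cells. Its ratio of basal-like to lower suprabasal-like cells was 1.82 (1.69 to 1.95) and 1.60 (1.44 to 1.78). Rfc2, Rfc3 and Rfc4, subunits of the loader, had ratios from 2.04 to 3.02 after CpG ODN and from 2.23 to 3.18 after LPS.

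Priming, strand joining and single-strand cover gave a summed ratio of 4.47 and 4.40. Lig1, the ligase that joins Okazaki fragments, had 28.7 and 23.9 CPM in basal-like cells and 5.83 and 4.45 in lower suprabasal-like cells. Prim1, the primase subunit, had the smallest ratio of the group, 3.01 and 3.13. For nucleotide supply the summed ratio was larger, 6.34 and 7.59. Dut, which removes dUTP, had 1427 and 688 UMIs in basal-like cells, or 77.3 and 70.9 CPM, against 8.36 and 6.26 CPM in lower suprabasal-like cells, a ratio of 9.24 (8.14 to 10.5) and 11.3 (9.23 to 14.0). Rrm1 and Rrm2, the subunits of ribonucleotide reductase, had ratios of 5.07 and 6.82 after CpG ODN and of 6.18 and 8.40 after LPS.

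Genes that copy chromatin and DNA methylation were divided. Uhrf1, which brings the methyltransferase Dnmt1 to newly copied DNA, had 15.9 and 16.7 CPM in basal-like cells and 0.787 and 0.527 in lower suprabasal-like cells. Its ratios, 20.2 (13.6 to 31.2) and 31.7 (16.3 to 70.6), were the highest of the 31 members counted. Dnmt1 itself had 31.7 and 28.9 CPM against 15.1 and 15.6, and ratios of 2.09 (1.86 to 2.36) and 1.85 (1.56 to 2.20). Slbp, which binds the stem-loop of histone mRNA, was also near 2, with 2.18 and 2.45. Of the G1/S regulators, E2f1 had ratios of 9.89 and 8.37 and Ccne2 of 7.65 and 7.40. Ccne1, which encodes the other cyclin E, had 2.42 (1.70 to 3.44) after CpG ODN and 5.28 (3.18 to 9.12) after LPS.

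**Figure D2:**
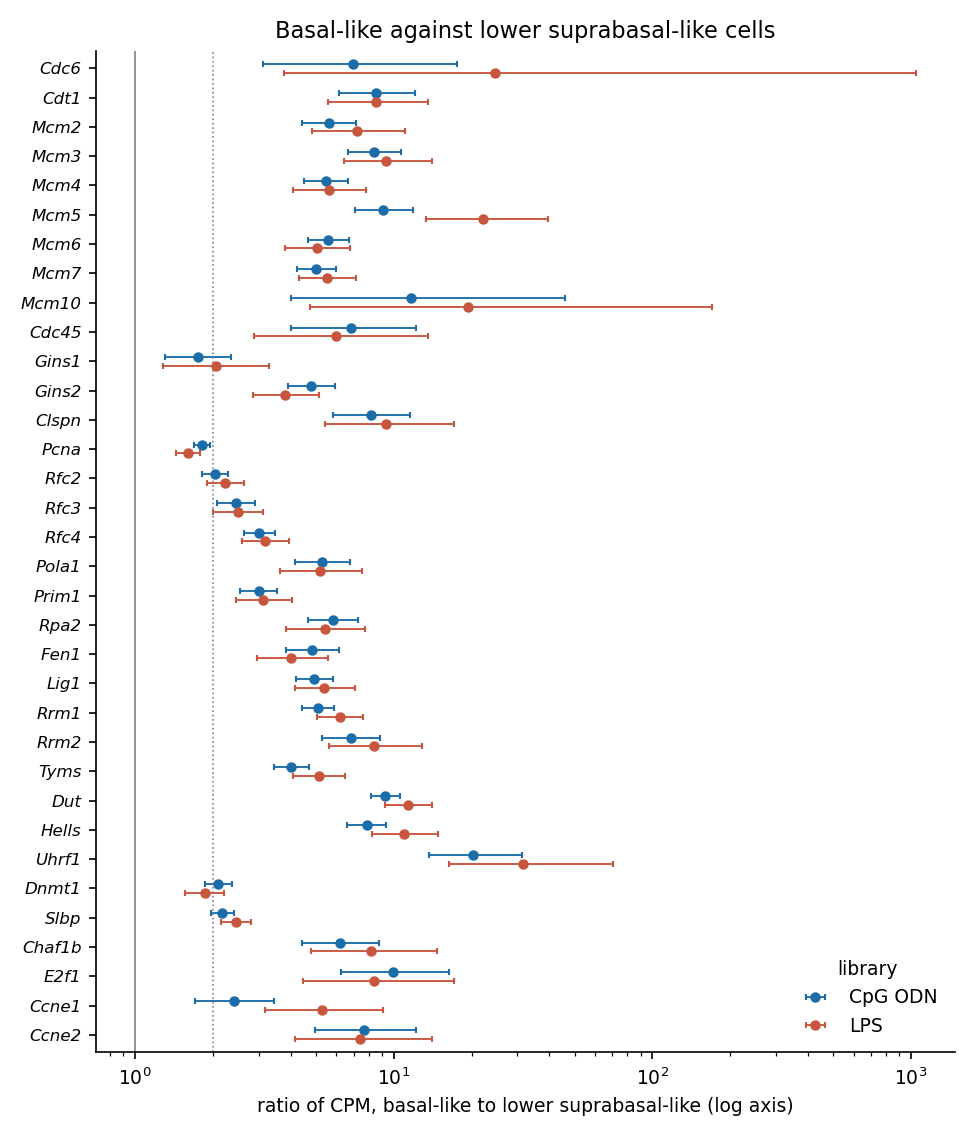
Ratio of CPM in basal-like to lower suprabasal-like cells for each member, in order of role, on a log axis, with exact 95% intervals for both libraries, a solid line at 1 and a dotted line at 2. Uhrf1 lies farthest right among the well-counted members at 20.2 and 31.7, and Pcna, Gins1, Rfc2, Dnmt1 and Slbp lie near 2. The widest bars belong to Cdc6 and Mcm10, which had few UMIs.

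Lower suprabasal-like and upper-layer-like cells could be compared for only 17 members. Of these, 7 were at least 2 times higher in the lower suprabasal-like cells in both libraries, beside 15.8% of 9691 genes, and none was 2 times lower, beside 5.54%.

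The basal-like cells differed in member UMIs at equal depth. Of 5000 UMIs, 296 and 78 cells held 0 member UMIs, and the highest cell held 34 and 48. A cell was called replication-high when it held at least 8 member UMIs of its 5000. This was so for 195 of 1661 basal-like cells after CpG ODN, or 11.7% (10.2 to 13.4%), and for 36 of 447 after LPS, or 8.05% (5.70 to 10.98%). The intervals of the libraries overlapped. They do not cover the choice of classes, since the share was 7.47% and 5.13% at clustering resolution 0.5, and 7.87% and 4.44% with a minimum of 200 detected genes. In cells taken by Krt5 it was 6.57% and 4.44%, but these were not divided into layers, and Krt5 was also found in lower suprabasal-like cells. Over all epithelial-like cells the share was 5.81% and 3.89%. The replication-high cells held 51.1% and 41.7% of the thinned member UMIs of the basal-like cells. This share and the medians that follow are a description, since the same UMIs set the state. They had a median of 12 and 13.5 member UMIs of 5000 from 10 different members in each library, while the other cells had a median of 1 and 2 UMIs. The limit is not a gap in the data, since 24 and 5 basal-like cells held exactly 8 and 25 and 9 held 7. Before thinning, replication-high cells had more UMIs than the others, with medians of 12406 and 27123.5 against 9734 and 18818, and the part of this depth in their state was not tested.

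Above the basal layer such cells were few. They were 13 of 1624 lower suprabasal-like cells after CpG ODN (0.80%, 0.427 to 1.36%), 1 of 410 after LPS (0.244%, 0.00617 to 1.35%), and 0 of 296 and 0 of 95 upper-layer-like cells, which allows shares of up to 1.24% and 3.81%. The upper-layer-like cells were the deepest, with medians of 35310.5 and 68469 UMIs before thinning.

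**Figure D3:**
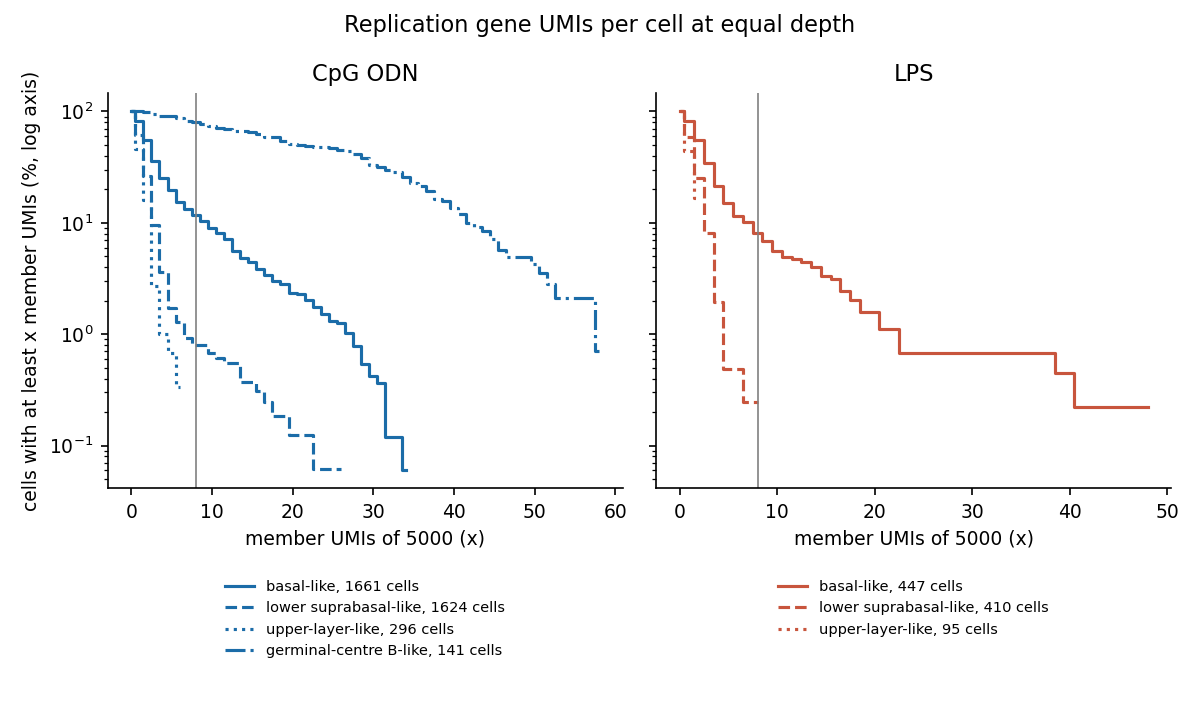
Share of cells (%, log axis) with at least x member UMIs after thinning to 5000 UMIs, by class, in the CpG ODN library (left) and the LPS library (right), with a grey line at the limit of 8. Basal-like cells form a long tail that crosses the limit at 11.7% and 8.05%, upper-layer-like cells end before it, and 80.1% of germinal-centre B-like cells after CpG ODN lie beyond it.

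Replication-high cells were found in each of the 6 basal-like clusters. In the cluster led by mitosis genes such as Anln and Cenpf they made up 23.7% (18.3 to 29.9%) and 15.6% (7.76 to 26.9%). In the cluster with H19 and Adh7 among its leading genes they made up 14.3% and 14.0%. In the cluster led by Col17a1 and Igfbp3 they were 11.2% (8.25 to 14.8%) and 3.53% (0.734 to 9.97%), and in the one led by Pappa 11.01% and 3.85%. The LPS values of these 2 clusters rest on 3 and 4 replication-high cells, and the intervals of the libraries overlap. The remaining basal-like clusters had 7.28% and 6.35%, and 8.04% and 6.67%, the latter in a cluster whose leading genes also held Krt76 and Krt24, keratins found mainly in the lower suprabasal-like clusters.

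To ask which members go with the state, each gene was compared between basal-like cells that were replication-high by the other 33 members and the rest. All 30 members with enough UMIs were at least 2 times higher in the replication-high cells in both libraries, beside 2.68% of 9075 genes, with a median ratio of 7.86 and 8.72 against 0.98 and 1.00 over all genes. None was 2 times lower, beside 0.22%. Mcm10, Gins1, Cdc45 and Cdc6 had fewer than 50 UMIs in a library and were not counted. Among the highest ratios were those of Uhrf1 (25.7 and 16.1), Rrm2 (24.2 and 27.5), E2f1 (23.6 and 23.3), Ccne1 (18.3 and 18.1) and Clspn (14.96 and 24.7). They were lowest for Rfc2 (2.91 and 3.67), Rfc4 (3.06 and 3.35) and Slbp (3.70 and 3.40). The members with the E2F letters in a window had median ratios of 10.8 and 11, and the 16 with a window but no such letters 8.04 and 8.45, sparse members included, in ranges that overlapped.

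Of the other replication genes 32 of 42 counted were past 2 times, and the 10 that were not included the origin recognition genes Orc2, Orc3, Orc4 and Orc5. Among all genes that are no member, those most like the members by this ratio were Rad51ap1 (26.8 and 16.1), Fam111a (18.4 and 14.9), Tcf19 (22.5 and 14.6), Ung (14.6 and 14.1) and Asf1b (14.5 and 13.4). Fignl1, Esco2, Ncapg2, Tk1 and Pclaf completed the first 10. At the other end, Gng2, Gjb6, Dynap, Gm26782 and 4833423E24Rik had the lowest ratios, from 0.07 to 0.41 after CpG ODN and from 0.21 to 0.39 after LPS. These ratios rest on 1 to 10 UMIs after CpG ODN and 2 to 12 after LPS in the replication-high cells. After LPS the intervals of Gng2, Gjb6 and Gm26782 held 1.

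Replication precedes division by hours, and both can leave RNA in the same cell, so the overlap with mitotic cells was measured next. A cell counted as mitotic with at least 2 UMIs of Cdc20 and Ccnb1, an activator of the anaphase-promoting complex and cyclin B1, neither of which is a member. Among basal-like cells of at least 5000 UMIs, 162 (9.75%, 8.37 to 11.3%) and 61 (13.6%, 10.6 to 17.2%) were mitotic as counted. After thinning it was 117 (7.04%) and 41 (9.17%). Of the mitotic cells 40 of 162 (24.7%, 18.3 to 32.1%) and 14 of 61 (23.0%, 13.2 to 35.5%) were replication-high, beside 10.3% (8.84 to 12.0%) and 5.70% (3.61 to 8.50%) of the other cells. Read the other way, 20.5% (15.1 to 26.9%) and 38.9% (23.1 to 56.5%) of the replication-high cells were mitotic.

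The overlap depended on depth. With Cdc20 and Ccnb1 also counted after thinning, 17.9% (11.5 to 26.1%) and 9.76% (2.72 to 23.1%) of the mitotic cells were replication-high, and 10.8% and 11.1% of the replication-high cells were mitotic. The interval of this share of mitotic cells held the share among cells not mitotic as counted after LPS (5.70%) but not after CpG ODN (10.3%). These reference shares use mitotic calls at full depth, so the comparison is not at equal depth. The replication-high shares of all basal-like cells, 11.7% and 8.05%, do not rest on mitotic calls and lay within the intervals in both libraries. Most replication-high basal-like cells, 155 of 195 and 22 of 36, were not mitotic even as counted.

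The mitosis genes were highest in cells called mitotic, a call that rests on 2 genes of the same list. Without Cdc20 and Ccnb1 they summed to 20361 and 19300 CPM in mitotic cells that were not replication-high. In cells that were both they summed to 21323 and 15711 CPM, so the order of these states differed between the libraries. The mitosis genes summed to 3978 and 3651 CPM in replication-high cells that were not mitotic and to 1762 and 1653 CPM in cells in neither state. Top2a, which untangles copied DNA, had 90.9 CPM in replication-high cells that were not mitotic after CpG ODN, 470 CPM in mitotic cells that were not replication-high and 4.40 CPM in cells in neither state. Of the 84 mitosis genes 41 were at least 2 times higher in replication-high than in other basal-like cells in both libraries, beside 2.68% of 9075 genes. The replication-high cells of this count include those that were also mitotic.

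The members themselves differed in how far their RNA was found in mitotic cells. Among the 23 members with enough UMIs in mitotic cells that were not replication-high and in cells in neither state, 5 were at least 2 times higher in the former in both libraries, beside 3.55% of 8732 genes, and 1 was at least 2 times lower, beside 0.71%. The 5 were Rrm1, Tyms, Fen1, Uhrf1 and Mcm5, and the 1 was Rfc3. The state of each gene was again set by the other 33 members.

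Of the 4 nucleotide supply genes 2, Rrm1 and Tyms, were among the 5, Rrm2 had too few UMIs to be counted and Dut did not pass. Rrm1 had 96.9 and 96.0 CPM in replication-high cells that were not mitotic, 214 and 203 in cells that were both, 78.8 and 91.5 in mitotic cells that were not replication-high and 17.2 and 18.7 in neither. The ratio of the third to the last was 4.596 (3.72 to 5.66) and 4.89 (3.81 to 6.28). Tyms, the thymidylate synthase, had 73.8 and 108 CPM, then 191 and 171, 38.4 and 36.8, and 10.5 and 14.0, in the same order of states. Rrm2 had 63.1 and 62.9 CPM, 149 and 141, 10.2 and 10.3, and 2.64 and 2.36. Dut had 224 and 209 CPM, 247 and 244, 73.4 and 80.9, and 50.4 and 46.9, and a ratio of mitotic to neither of 1.46 (1.21 to 1.75) and 1.73 (1.38 to 2.14). For all 4 genes the level was highest in the cells that were both replication-high and mitotic, in both libraries.

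Clspn followed the same order, with 41.4 and 36.4 CPM in replication-high cells that were not mitotic and 75.8 and 82.1 in cells that were both. It had 18.9 and 9.59 CPM in mitotic cells that were not replication-high and 1.17 and 0.971 in neither, where it had too few UMIs after LPS to be counted above. Uhrf1 had 87.9 and 84.5 CPM, 93.9 and 113, 16.2 and 26.6, and 1.76 and 2.22 in these states. Fen1, the flap endonuclease, had a ratio of mitotic to neither of 3.67 (2.43 to 5.48) and 3.02 (1.68 to 5.30).

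The helicase subunit Mcm2 had too few UMIs in these cells to be counted. It had 80.9 and 79.3 CPM in replication-high cells that were not mitotic, 35.0 and 64.9 in cells that were both, 2.16 and 3.69 in mitotic cells that were not replication-high, and 7.42 and 5.80 in neither. The last ratio was 0.29 (0.08 to 0.77) and 0.64 (0.20 to 1.60), from 4 and 5 UMIs in the mitotic cells. The licensing factor Cdt1, which is known to be degraded once S phase starts, had 49.5 and 56.4 CPM, 25.2 and 53.5, 3.24 and 2.95, and 5.92 and 8.55. Its ratio of mitotic to neither was 0.55 (0.20 to 1.24) and 0.35 (0.09 to 0.93), with an interval below 1 after LPS only, and it was not past 2 times lower in both. Among the other helicase subunits Mcm3, Mcm4 and Mcm6 were above 1 in 1 library and below it in the other, Mcm7 had 1.20 and 1.56, and Mcm5 was past 2 times in both, with 13.0 and 14.8 CPM in mitotic cells that were not replication-high against 5.91 and 7.05 in neither.

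Rfc3 had 51.5 and 66.8 CPM in replication-high cells that were not mitotic, 4.28 and 7.38 in mitotic cells that were not replication-high and 14.1 and 16.5 in neither, ratios of 0.30 (0.13 to 0.61) and 0.45 (0.21 to 0.85). Rfc4, another loader subunit, differed in direction, with 42.1 and 33.2 CPM against 19.8 and 19.0 and ratios of 2.13 (1.63 to 2.74) and 1.75 (1.22 to 2.45). Slbp had 23.6 and 25.8 CPM against 36.3 and 43.9, ratios of 0.65 (0.47 to 0.89) and 0.59 (0.40 to 0.83). Pcna had 34.8 against 53.5 CPM after CpG ODN, 0.65 (0.50 to 0.84), but 47.6 against 46.2 after LPS, 1.03 (0.78 to 1.34).

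**Figure D4:**
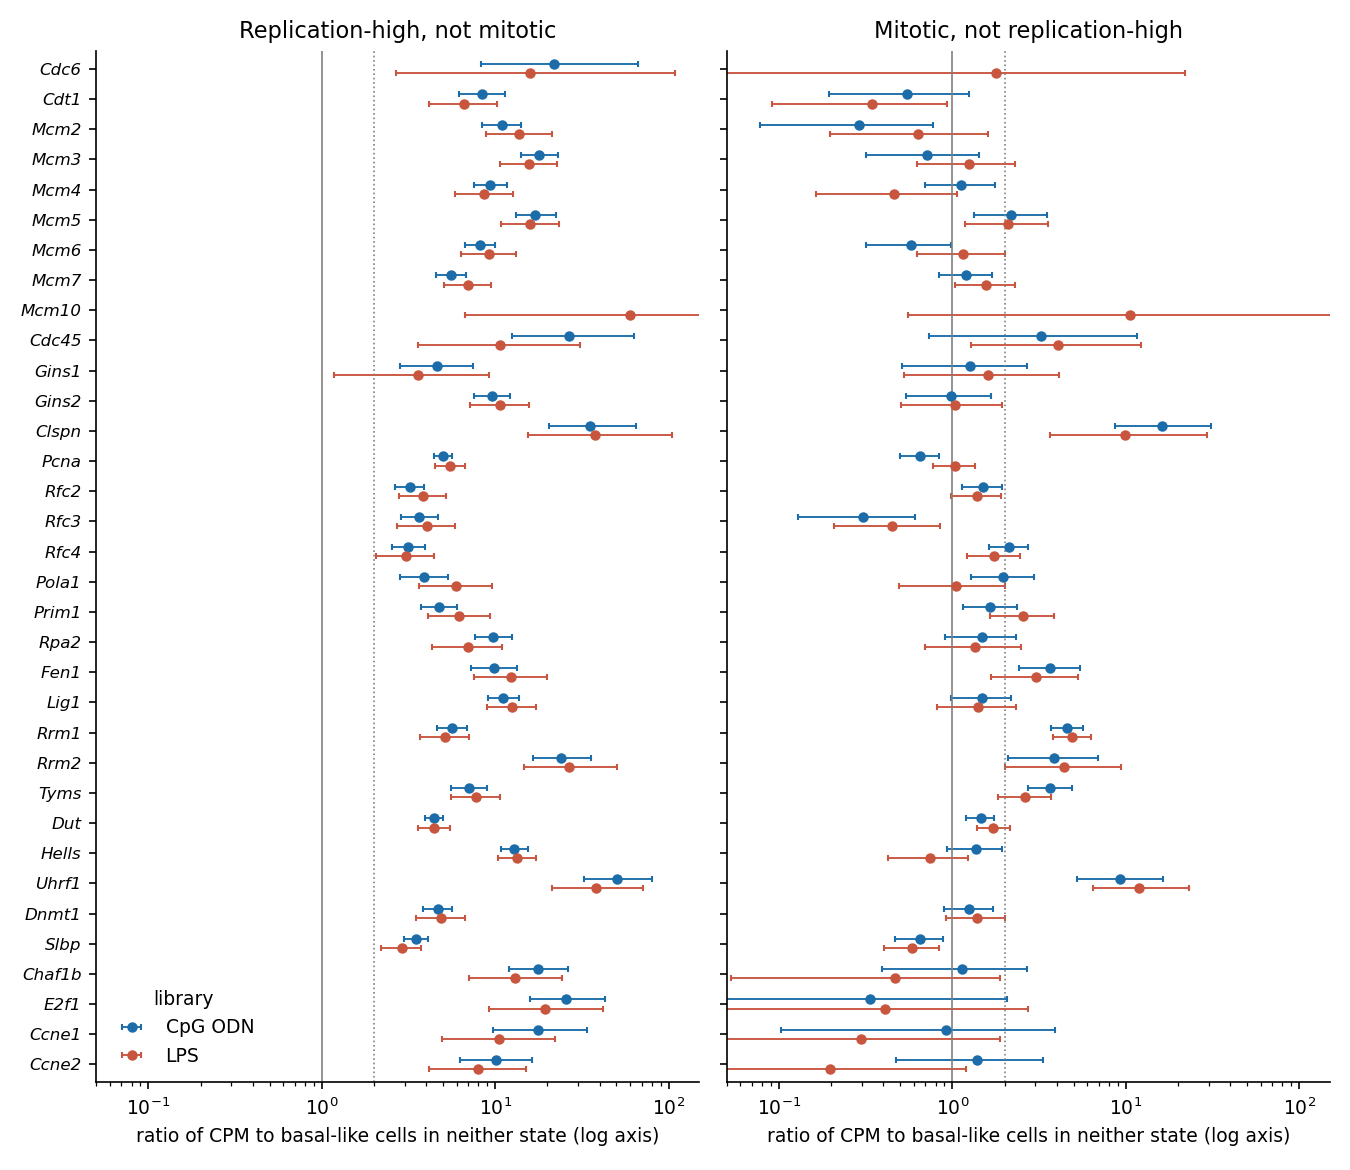
Ratio of CPM to basal-like cells in neither state, for each member in order of role on a log axis, in cells that were replication-high but not mitotic (left) and mitotic but not replication-high (right), with exact 95% intervals, a solid line at 1 and a dotted line at 2. On the left the plotted points lie right of 2 in both libraries. On the right Mcm5, Rrm1, Rrm2, Tyms, Clspn, Fen1 and Uhrf1 lie right of 2 and Rfc3, Slbp, Cdt1 and Mcm2 are among those left of 1, and a ratio of 0 or against 0 is not drawn.

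Genes that hold the cycle back were set beside these values, and they differed among themselves in direction. Cdkn1a, the inhibitor p21, had 42.7 and 59.0 CPM in basal-like cells, 169 and 190 in lower suprabasal-like cells and 563 and 480 in upper-layer-like cells. Cdkn2b, the inhibitor p15, went from 3.20 and 3.50 to 28.1 and 29.4 and then 68.4 and 67.3 CPM. Cdkn2c (p18) also rose, from 14.8 and 17.0 to 24.6 and 26.0 and then 38.8 and 54.6 CPM. Rb1 rose from 23.0 and 22.8 to 42.8 and 44.5 and then 54.2 and 59.7 CPM, and Btg2 rose as well. Rbl1 and Rbl2, of the same family as Rb1, fell in both libraries. Other inhibitors had the opposite order, Cdkn1b (p27) with 44.7 and 41.4, 26.2 and 23.9, and 12.9 and 19.9 CPM, Cdkn2d (p19) with 23.3 and 25.9, 10.4 and 11.1, and 8.28 and 6.79, and Cdkn1c (p57) with 3.84 and 6.29, 1.66 and 1.46, and 0.46 and 1.21. The upper-layer-like values of Cdkn1c rest on 5 and 8 UMIs. These 3 inhibitors, and Cdkn2c, Rb1, Btg2, Rbl1 and Rbl2, were named after their values were seen. The G1 cyclins were highest in basal-like cells too. Ccnd1 had 362 and 325, 131 and 121, and 11.6 and 6.94 CPM. Ccnd2 had 327 and 357, 25.6 and 28.4, and 6.44 and 0.754 CPM. Within the basal layer Ccnd2 had 445 and 576 CPM in replication-high cells that were not mitotic and 123 and 142 in mitotic cells that were not replication-high. Cdkn2d had 14.6 and 16.6 CPM in the first of these states and 77.8 and 73.0 in the second. Of the 17 genes of this list, 16 were counted between the layers, 5 were at least 2 times higher in basal-like than in lower suprabasal-like cells in both libraries and 2 at least 2 times lower. The 5 were Cdkn1c, Cdkn2d, Ccnd1, Ccnd2 and Ccng2, and the 2 were Cdkn1a and Cdkn2b.

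Germinal-centre B cells divide fast while they mutate and select their receptors, and the cells given that name were the second place with high levels. At 5000 UMIs, 113 of 141 after CpG ODN were replication-high, or 80.1% (72.6 to 86.4%), and 2 of 3 after LPS. A further 97 of the 238 cells were too shallow to be thinned. Of 58 mitotic cells 44 were replication-high (75.9%, 62.8 to 86.1%), beside 83.1% (73.3 to 90.5%) of the cells that were not mitotic.

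The members reached a higher level in replication-high germinal-centre B-like cells than in replication-high basal-like cells of the same library, 5392 against 2804 CPM, a ratio of 1.92 (1.86 to 1.99). This summed ratio is a description, since member UMIs themselves set the state in both classes. Dnmt1 had 311 against 99.8 CPM (3.12, 2.66 to 3.65) and Dut 674 against 230 CPM (2.93, 2.63 to 3.26), each with the state set by the other members. Tyms had 108 against 105 CPM (1.03, 0.84 to 1.26), Gins2 66.2 against 70.1 (0.94, 0.73 to 1.22) and Ccne2 18.3 against 25.5 (0.72, 0.44 to 1.15), so the step differed among members. Against other B-like cells of that library the summed ratio was 5.93 (5.41 to 6.51). Rrm2 had 235 UMIs in germinal-centre B-like cells and 1 in the 285 other B-like cells. Cdt1 was not higher, with 50.8 against 61.7 CPM (0.82, 0.57 to 1.21). The other B-like cells had a median of 2150 UMIs and only 6 of them reached 5000, so their share of replication-high cells could not be measured.

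Between the libraries the basal-like cells differed little in these genes. The summed ratio of CpG ODN to LPS was 1.05 (1.02 to 1.08), but its direction depended on the filter, with 0.975 at a minimum of 1200 detected genes and 1.00 at 200, and it ranged up to 1.11 over the alternatives run. Of 32 members with at least 50 UMIs over both libraries, none was at least 1.5 times higher after CpG ODN, beside 1.52% of 10864 genes, and 1 was at least 1.5 times higher after LPS, beside 3.45%. That gene was Ccne1, with 78 UMIs and 4.22 CPM after CpG ODN and 63 UMIs and 6.49 CPM after LPS, a ratio of 0.65 (0.46 to 0.92). The median ratio of the members was 1.06 and that of all genes 0.98.

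The nearest to the limit on the other side were Mcm4, with 22.3 and 16.7 CPM (1.34, 1.11 to 1.61), Mcm6, with 25.7 and 19.8 CPM (1.30, 1.09 to 1.54), and Rpa2, which covers single-stranded DNA, with 18.4 and 14.5 CPM (1.27, 1.04 to 1.55). Rrm1 (0.91, 0.80 to 1.02) and Tyms (0.87, 0.75 to 1.01) were slightly the other way, with intervals that held 1. A single LPS cell held 434 of the 7001 member UMIs of the LPS basal-like cells (6.20%). It had 119207 UMIs in all, a UMI of each of the 34 members and 32 UMIs of Cdc20 and Ccnb1. The doublet caller Scrublet called 0 of the 36 replication-high basal-like LPS cells. Its calls were too few to count as having worked, so whether this cell is a doublet is not known. Without the cell with the most member UMIs in each library the summed ratio was 1.10 and no member was past 1.5 times in either direction.

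Replication-high basal-like cells had 2804 and 2992 CPM and the others 403 and 423 CPM, given as a description, since member UMIs themselves set these states. One library for each ligand cannot tell these differences apart from those between mice, tissue pieces or cell preparations.

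**Figure D5:**
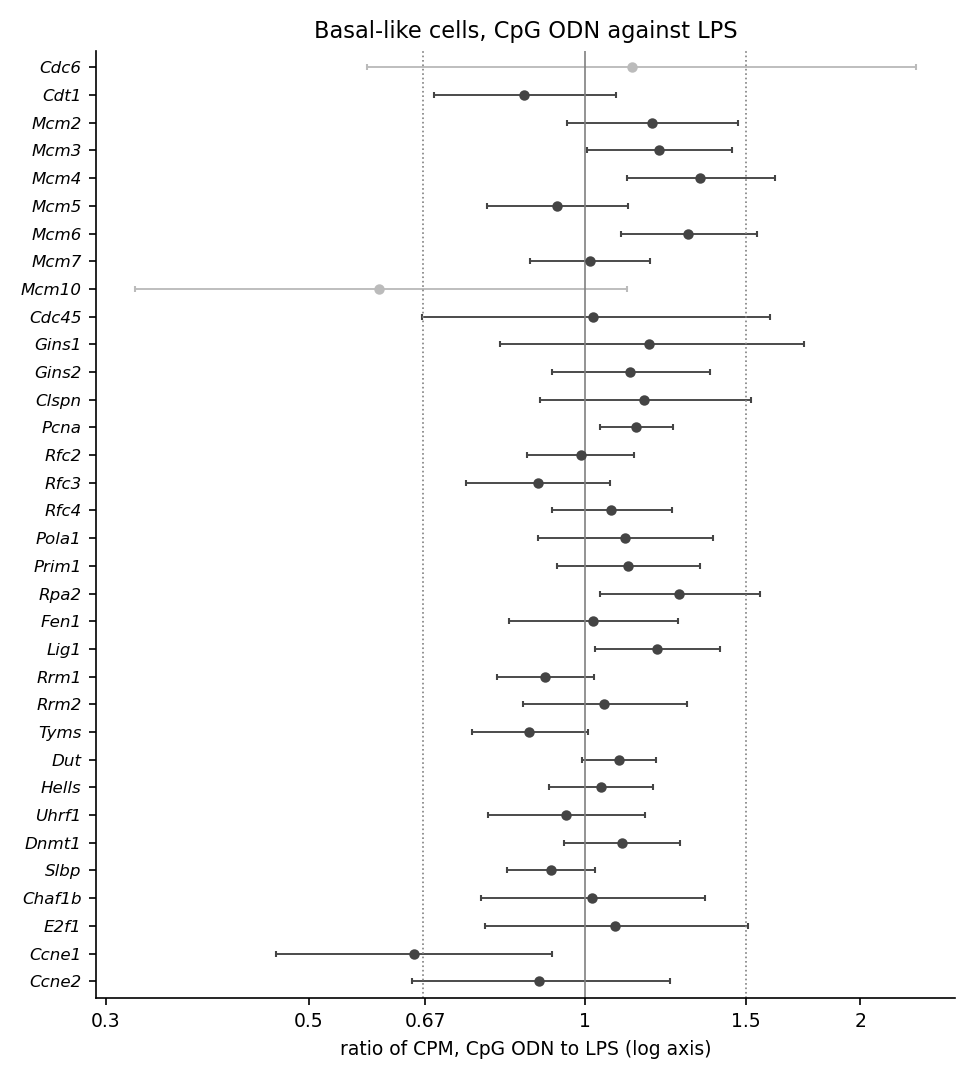
Ratio of CPM after CpG ODN to CPM after LPS in basal-like cells for each member, on a log axis, with exact 95% intervals, a solid line at 1 and dotted lines at 1.5 times either way. All dark points but Ccne1 (0.65) lie between the dotted lines, and the 2 grey points, Cdc6 and Mcm10, had fewer than 50 UMIs.

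In lower suprabasal-like cells Mcm2 and Mcm5 were past 1.5 times after CpG ODN among 28 members counted, beside 2.24% of 10882 genes, and none was past it after LPS, beside 3.34%. Mcm2 had 95 and 31 UMIs there (1.53, 1.01 to 2.37) and Mcm5 73 and 16 (2.27, 1.31 to 4.18). Single members are not compared between the libraries in other classes, where few had 50 UMIs, and the 4 germinal-centre B-like cells after LPS allow no comparison between the ligands.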

How the data were processed

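The authors deposited raw UMI counts per gene and barcode for each library (whole numbers, Cell Ranger 4.0.0 in the file headers, with no normalization). The genome build of that step was not given in the sources used here. The 34 members, the gene lists and the limits were chosen with earlier results of these data known. Barcodes under 800 detected genes were left out, the limit that the study's methods give. Counts per 10000 were log-transformed, 247 genes (members, other replication, mitosis and histone genes) were held out, and 2000 variable genes, 30 principal components and 15 neighbours gave 27 Leiden clusters (resolution 1). Classes came from listed markers with a UMI in at least 20% of a cluster's cells and at least 2 times the mean of other coarse clusters. A cluster with under 3 such markers stayed unnamed. Layers were given to epithelial-like clusters by the mean standardized log2(CPM + 5) of layer markers. Both scoring rules were set after the data were seen, and the rebuilt classes need not hold the cells of the study's.

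Levels were summed UMIs per 1000000 (CPM) with exact Poisson intervals, ratios had exact conditional binomial intervals and shares exact Clopper-Pearson intervals (95%). Thinning drew 5000 UMIs per cell without replacement, with 1 fixed seed. Past the fold meant 1.5 times between libraries (at least 50 UMIs over both) and 2 times in both libraries between layers or states (at least 50 UMIs in each). No p-value was computed. Genes named were the members, genes of the 3 other lists, and the 10 and 5 genes most and least like the members in basal-like cells, leaving out histone, mitochondrial and ribosomal protein genes. Doublets were kept. Scrublet in scanpy 1.11.5 called 17 (0.348%) and 3 (0.235%) cells, too few to count as having worked. The ratios, intervals and thinning were checked on simulated counts. Python 3.11.15, numpy 2.4.6, scipy 1.17.1 and leidenalg 0.10.2 were used. Promoter windows were RefSeq's (GRCm38.p6). Alternatives were other filters, clusterings, depths, limits, mitotic rules and cell weights. Depth set the precision: 72173148 and 38656738 UMIs in all, medians of 11077.5 and 22680 per kept cell.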

Additional observations from a re-analysis of the deposited data

Results flagged for a closer look

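The barcodes left out for under 800 detected genes also held member UMIs, data that no comparison above uses. They were 898 UMIs in 1331 barcodes after CpG ODN, or 556 CPM, and 38 UMIs in 739 barcodes after LPS, or 25.3 CPM, and both exceed the 3 counts that a count of 0 allows. In the CpG ODN library 96 of these barcodes carried a UMI of a germinal-centre B marker and held 263 of the member UMIs, or 2253 CPM (1989 to 2542). The 1235 barcodes without such a UMI held 635, or 424 CPM (391 to 458). In the LPS library 3 barcodes carried such a marker UMI and held no member UMI. The median left-out barcode with a marker UMI after CpG ODN had 587.5 detected genes, so a filter at 200 genes takes such barcodes in.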

How the results depend on the processing

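No paired analysis was possible because the design holds only 1 library for either ligand. Over all alternatives run, 25 to 28 members were at least 2 times higher in basal-like than in lower suprabasal-like cells, and 26 to 32 in replication-high than in other basal-like cells. No member was past 1.5 times after CpG ODN under any. Among main comparison values recomputed in this way, 186 stayed within their interval (counts within 1.5 times) and 50 did not. Of the other values 3068 did, 411 did not and 3 turned direction. The cause of these shifts was not tested, and 2 alternatives were chosen after seeing the data, those without the cell with the most member UMIs of each class and library and without the cluster led by mitosis genes.

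With at least 1200 detected genes the ratio of CpG ODN to LPS in basal-like cells was 0.975, with 200 it was 1.00, with the compared genes left in the clustering 1.02, at resolution 1.5 it was 1.01, as a mean over cells 1.11 and without the top cells 1.10. The count of members higher after LPS was 0 with 200 genes, as a mean over cells, with at least 200 UMIs, at a fold of 2 and without the top cells, and 2 with at least 20 UMIs. The ratio of basal-like to lower suprabasal-like cells was 3.40 and 3.53 with 1200 genes, 3.42 and 3.29 with 200, 3.13 and 3.13 at resolution 0.5, 2.998 and 3.05 as a mean over cells and 3.24 and 3.29 without the mitosis-led cluster. After LPS it was 3.54 with the compared genes left in.

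The share of replication-high basal-like cells after CpG ODN was 8.91% with 1200 genes, 7.87% with 200, 9.88% with the compared genes left in, 7.47% at resolution 0.5, 6.57% in Krt5 cells, 17.0% at 10000 UMIs, 19.6% and 7.16% with limits of 5 and 12 UMIs and 9.92% without the mitosis-led cluster. After LPS it was 4.44% with 200 genes, 5.13% at resolution 0.5, 4.44% in Krt5 cells and 15.2% and 4.70% with limits of 5 and 12. Of mitotic cells 36.4% and 36.1% were replication-high with a limit of 5, 16.05% after CpG ODN with 12, 12.7% after LPS with 200 genes, and 17.9% and 9.76% with mitotic cells called after thinning. Of replication-high cells 10.8% and 11.1% were mitotic after thinning, and 14.9% after CpG ODN with at least 4 UMIs of Cdc20 and Ccnb1. Of germinal-centre B-like cells 65.1% were replication-high at 2500 UMIs, 90.6% at 10000, and 90.1% and 69.5% with limits of 5 and 12. At 2500 and 10000 UMIs, for basal-like cells too, the limit was scaled in proportion to the depth. Only cells that reach the depth were used. The ratio of mitotic to neither after CpG ODN turned to 1.08 with 200 genes and 1.43 in Krt5 cells for Mcm6, and to 0.989 with a limit of 5 for Pola1. Krt5 cells were not divided into layers, so their values are not of basal-like cells alone. They gave no germinal-centre class, and 1200 genes gave no such class either.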

Other observations

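Some layer markers also differed between replication-high and other basal-like cells. Most genes of the basal list had ratios below 1 in both libraries, while the genes of the lower suprabasal list did not move together. Krt76, a keratin of the suprabasal list, had 1139 and 536 CPM against 1754 and 1471, a ratio of 0.65 (0.63 to 0.67) and 0.36 (0.34 to 0.40). Itga6, the integrin that anchors basal cells, had 300.2 and 303 CPM against 425 and 423, and Igfbp3 255 and 188 against 336 and 382. Krtdap, a differentiation gene, went the other way, with 212 and 418 CPM against 113 and 187, a ratio of 1.88 (1.71 to 2.07) and 2.24 (2.02 to 2.48). Sbsn, on the same list as Krt76 and Krtdap, also had ratios above 1, 1.26 and 1.54. Of the basal list Krt5 had ratios of 0.97 and 0.89, Krt14 0.90 and 0.73, Col17a1 0.85 and 0.83, and Dst 0.71 and 0.47. Krt15 was below 1 after CpG ODN only (0.77 and 1.02). Trp63 (0.93 and 1.08) and Cdh3 (1.13 and 1.12), also basal markers, had intervals that held 1 in both libraries.

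Among gland-like or simple epithelial-like cells at 5000 UMIs, 13 of 108 were mitotic after CpG ODN (12.0%, 6.57 to 19.7%) and 1 of 63 after LPS (1.59%, 0.0402 to 8.53%), while 8 and 5 were replication-high (7.41% and 7.94%). Of the 13 mitotic cells 1 was replication-high. The fibroblast-like LPS cell that held 40.4% of its class's member UMIs had 137 of them from 31 members in 19747 UMIs, with no UMI of Cdc20 or Ccnb1.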
